A study of Mus musculus with 6 samples.

Results

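The genes described here make or sense the prostaglandins and leukotrienes, lipid mediators derived from arachidonic acid. They were chosen by name, as the deposited entries whose RefSeq accession belongs to Pla2g4a, Alox5, Alox5ap, Lta4h, Ltc4s, Ptgs1, Ptgs2, Hpgds, Tbxas1 and Cysltr1, which gave 10 entries of 23146. RNA was sequenced in 6 libraries of EML, a progenitor line from mouse bone marrow that was immortalised with a dominant negative retinoic acid receptor and depends on stem cell factor. All libraries came from EML cells of strain BDF1 grown in 20% FBS with 200 ng/ml SCF, with Basophil given as the cell type in the labels. The groups were the knockdown control (n = 2), the KAI1 knockdown (n = 2), the overexpression control (n = 1) and the KAI1 overexpression (n = 1). KAI1 is the tetraspanin encoded by Cd82. The controls are labelled WT-control, and how KAI1 was lowered or raised, the vector and the number of clones are not given in the sources used here. Separate cultures are not stated in the labels, so a p-value measures only the spread between these libraries, which may be technical.

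Arachidonic acid is cut from membrane phospholipids by the cytosolic phospholipase A2 that Pla2g4a encodes. In 1 branch the 5-lipoxygenase Alox5, helped by the membrane protein FLAP that Alox5ap encodes, makes leukotriene A4, which Lta4h turns into leukotriene B4 and Ltc4s into the cysteinyl leukotriene C4. In the other branch the cyclooxygenases Ptgs1 and Ptgs2 make prostaglandin H2, which Hpgds turns into prostaglandin D2 and Tbxas1 into thromboxane A2. Mast cells are a known source of prostaglandin D2 and cysteinyl leukotrienes, and platelets of thromboxane.

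Values are RPKM, a read count scaled by transcript length and sequencing depth, so levels of different genes can be set side by side per length. Cd82 stood at 43.9 and 13.8 RPKM in the 2 knockdown control libraries, against 7.65 and 6.91 RPKM in the 2 KAI1 knockdown libraries, and at 11.9 and 15.2 RPKM in the overexpression control and the KAI1 overexpression. Its knockdown difference did not pass the test (adjusted p = 0.83). The depth, estimated from the steps of low values, ran from about 9720000 reads in knockdown control replicate 2 to about 25400000 in the overexpression control. Knockdown control replicate 1 stood apart from the other libraries. It was at least 2-fold above control replicate 2 in 12.8% of the 10113 entries tested and at least 2-fold below it in 8.56%. The summed level of 21 mast cell and basophil markers was 79936 RPKM there and 17525 RPKM in control replicate 2. It was 9575 and 8615 RPKM in the 2 KAI1 knockdown libraries, 7270 RPKM in the overexpression control and 29311 RPKM with KAI1 overexpressed. Much of this sum came from a few abundant proteases, with Mcpt2 at 34429 RPKM and Cma1 at 22312 RPKM in knockdown control replicate 1. Gene by gene, 16 of the 21 markers were at least 2-fold higher in that library than in control replicate 2 (RPKM + 1 scale). Only Mcpt8 was at least 2-fold lower. The high affinity IgE receptor gene Fcer1a, a defining marker of mast cells and basophils, was at 24.2 and 7.41 RPKM in knockdown control replicate 1 and the KAI1 overexpression and between 0 and 0.289 RPKM in the other libraries. In bulk RNA, fewer cells of a type and less RNA per cell cannot be told apart.

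The members spanned a wide range of levels, from Alox5ap at 303 to 1239 RPKM down to Cysltr1, which was listed at 0 in every library. Alox5ap ranked 138th to 414th of all 23146 entries. Lta4h, Hpgds and Pla2g4a came next, with means over the 6 libraries of 24.2, 18.8 and 10.3 RPKM. The highest values of Ltc4s and Ptgs1 were 3.03 and 4.61 RPKM and that of Ptgs2 was 1.28 RPKM, while Alox5 and Tbxas1 stayed under 1 RPKM. The plot of RPKM by library shows these levels gene by gene.

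**Figure D1:**
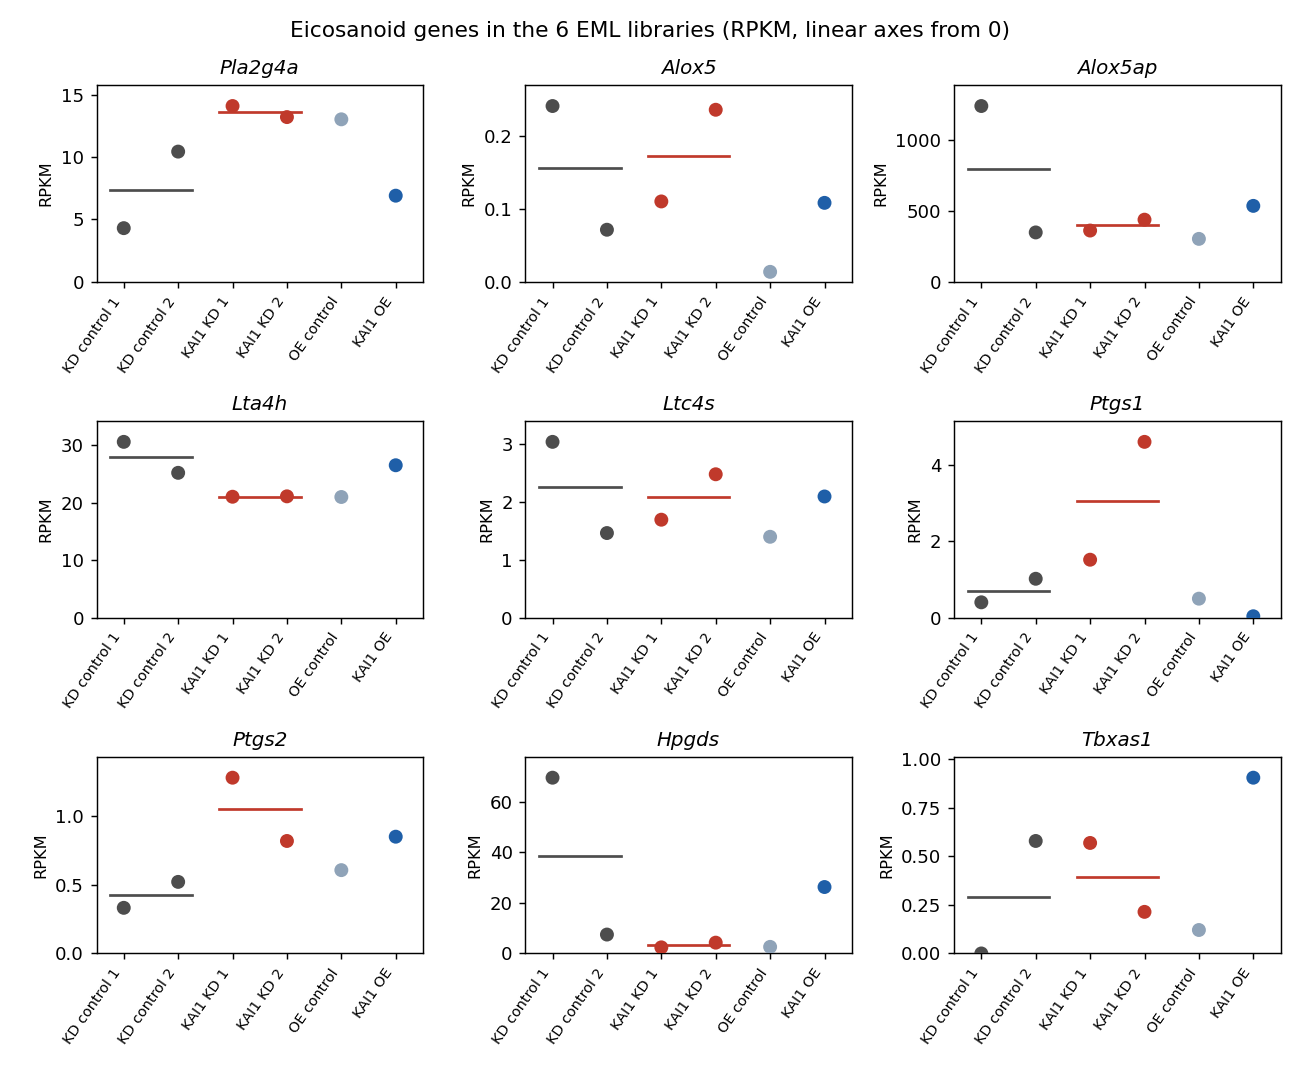
RPKM of the 9 members above 0 in each of the 6 libraries, on linear axes from 0. Each point is 1 library (KD, knockdown; OE, overexpression), and lines mark the mean of the 2 libraries of a knockdown arm group. Hpgds and Alox5ap are highest in knockdown control replicate 1 (69.6 and 1239 RPKM), where Pla2g4a is lowest (4.30 RPKM).

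Promoter sequence is shown for the members of widest and narrowest range among those above 0 in all libraries. The highest library was 130-fold over the lowest for Ptgs1, 28.8-fold for Hpgds and 1.46-fold for Lta4h. RefSeq promoter entries on GRCm38.p6 matched 8 of the 10 members (Alox5ap and Cysltr1 did not match), with 9 windows in all. The window printed is the 250 bases before the gene's start, on the gene's strand, and the expression tables use mm9, so no coordinate is shared between them. Capitals mark letters of 4 motifs, searched on both strands and chosen after the sequences were seen. They are the M-box of the mast cell factor MITF (TCATGTGA or TCACGTGA), GATA (the words AGATAA and AGATAG, and with a first T the words TGATAA and TGATAG), ETS (GGAAGT) and RUNX (TGTGGT or TGCGGT).
Hpgds, chr6:65144731-65144980, minus strand: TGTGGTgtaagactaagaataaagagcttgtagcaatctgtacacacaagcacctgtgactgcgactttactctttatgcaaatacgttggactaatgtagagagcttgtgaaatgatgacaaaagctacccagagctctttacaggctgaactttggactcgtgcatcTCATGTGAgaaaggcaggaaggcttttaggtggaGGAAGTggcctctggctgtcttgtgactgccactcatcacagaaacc
Ptgs1, chr2:36230176-36230425, plus strand: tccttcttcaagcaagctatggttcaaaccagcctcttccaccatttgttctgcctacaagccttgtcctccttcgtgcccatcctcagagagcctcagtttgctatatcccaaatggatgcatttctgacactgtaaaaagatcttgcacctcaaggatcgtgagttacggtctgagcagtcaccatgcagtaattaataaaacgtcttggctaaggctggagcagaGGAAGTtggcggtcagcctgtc
Lta4h, chr10:93453146-93453395, plus strand: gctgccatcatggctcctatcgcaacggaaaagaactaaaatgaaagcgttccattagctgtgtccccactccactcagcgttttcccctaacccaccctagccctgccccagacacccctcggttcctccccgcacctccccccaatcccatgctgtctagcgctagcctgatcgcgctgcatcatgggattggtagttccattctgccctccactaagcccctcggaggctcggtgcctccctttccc
Hpgds held the M-box letters TCATGTGA once, 81 to 74 bases before its start, with 1 ETS and 1 RUNX match. None of the other 8 windows held either M-box word. Over all 32851 promoter windows of this length, 1.61% held an M-box, 26.5% a GATA, 19.7% an ETS and 18.6% a RUNX match. No motif searched here overlapped another in the Hpgds window. A match of letters is a description and not a binding site. Mitf, given here after its values were seen, stood at 13.6 and 3.92 RPKM in the 2 knockdown control libraries, 3.22 and 4.61 RPKM in the 2 KAI1 knockdown libraries, 2.61 RPKM in the overexpression control and 9.38 RPKM with KAI1 overexpressed. Gata2 was likewise highest in knockdown control replicate 1 (235 RPKM) and second in the KAI1 overexpression (161 RPKM), and the Hpgds window held no GATA match. With motifs and Mitf both picked after being seen, these values cannot decide whether Mitf acts on Hpgds, which was not tested.

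Pla2g4a (chromosome 1, 151676752 to 151808414 on mm9), which releases the substrate, was higher in the KAI1 knockdown than in its controls, though not past the test. Pla2g4a was at 4.30 and 10.4 RPKM in the 2 control libraries, from 234 and 295 recovered reads. In the KAI1 knockdown it stood at 14.1 and 13.2 RPKM, from 516 and 734 reads. Both knockdown libraries lay above both controls, which also differed from each other by more than the knockdown pair did. The means were 7.37 ± 4.34 (SD, n = 2) and 13.6 ± 0.627 RPKM (SD, n = 2). The difference was 0.91 on the log2(RPKM + 1) scale (SE 0.43, 95% interval -0.24 to 2.07, adjusted p = 0.83). Leaving out control replicate 1 gave 0.36, and leaving out control replicate 2 gave 1.47 and passed (adjusted p = 0.033), with a lone control library in that fit. In the other arm, of overexpression, Pla2g4a was lower, at 13.0 RPKM in the control and 6.90 RPKM with KAI1 overexpressed, from 963 and 386 reads. That is a ratio of 0.530 with a counting interval of 0.470 to 0.597.

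In the leukotriene branch the helper gene was abundant and the lipoxygenase itself was close to absent. Alox5ap (chromosome 5, 150076634 to 150099623) stood at 1239 and 348 RPKM in the 2 knockdown control libraries, against 361 and 438 RPKM in the 2 KAI1 knockdown libraries. The groups overlapped, since control replicate 2 was the lowest of the 4. The difference was -0.72 (SE 0.68, 95% interval -2.55 to 1.101, adjusted p = 0.839). It turned to 0.19 once control replicate 1 was left out (adjusted p = 0.656), and with control replicate 2 left out it was -1.64 and passed (adjusted p = 0.035) with 1 control library. Between the overexpression libraries Alox5ap stood at 303 RPKM in the control library and 535 RPKM with KAI1 overexpressed, 1.77-fold apart.

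Alox5 (chromosome 6, 116360089 to 116411196) stood at 0.241 and 0.0713 RPKM in the 2 knockdown control libraries, against 0.110 and 0.236 RPKM in the 2 KAI1 knockdown libraries. These values rest on 13, 2, 4 and 13 reads. The groups overlapped fully, and Alox5 did not reach the mean of 1 RPKM needed to enter the test. It stood at 0.0136 RPKM from 1 read in the overexpression control and at 0.108 RPKM from 6 reads in the KAI1 overexpression. Their ratio of 7.93 has a counting interval of 0.963 to 365, so a difference was not detectable at this depth. Even the highest value, 0.241 RPKM with a Poisson interval of 0.128 to 0.412, was far below Alox5ap in the same library.

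Lta4h (chromosome 10, 92916141 to 92947641) was the steadiest member. It stood at 30.6 and 25.2 RPKM in the 2 control libraries, against 21.04 and 21.11 RPKM in the 2 KAI1 knockdown libraries, so both knockdown libraries lay below both controls. The means were 27.9 ± 3.81 (SD, n = 2) and 21.1 ± 0.0494 RPKM (SD, n = 2), a difference of -0.38 (SE 0.23, 95% interval -1.01 to 0.24, adjusted p = 0.83). Leaving out control replicate 1 gave -0.25. In the overexpression pair it stood at 20.99 and 26.51 RPKM, from 1094 and 1045 reads. That ratio was 1.26 with a counting interval of 1.16 to 1.38.

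Ltc4s (chromosome 11, 50049974 to 50051973) rested on 6 to 24 reads a library. It stood at 3.03 and 1.46 RPKM in the 2 control libraries, against 1.69 and 2.47 RPKM in the 2 KAI1 knockdown libraries, with both knockdown values between the controls. The difference was -0.043 (95% interval -1.02 to 0.94, adjusted p = 0.982), and it took either sign with 1 library left out, from -0.40 to 0.31. In the overexpression arm it stood at 1.39 and 2.09 RPKM, a ratio of 1.499 with a counting interval of 0.704 to 3.22. The Ltc4s reads are the smallest whole counts that fit, since 1 read was worth 1.53 times what its transcript length gives, whereas for the other members with recovered reads this value lay within 2.71% of expectation.

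In the prostaglandin branch Hpgds (chromosome 6, 65067287 to 65094724) had the largest knockdown difference of the tested members, and the widest gap between the controls. It stood at 69.6 and 7.48 RPKM in the 2 control libraries, against 2.41 and 4.27 RPKM in the 2 KAI1 knockdown libraries. Both knockdown libraries lay below both controls, but control replicate 2 was nearer to them than to control replicate 1. The means were 38.5 ± 43.9 (SD, n = 2) and 3.34 ± 1.32 RPKM (SD, n = 2). The difference was -2.53 (SE 1.08, 95% interval -5.42 to 0.37, adjusted p = 0.83). Leaving out control replicate 1 gave -0.999 (adjusted p = 0.406), and leaving out control replicate 2 gave -4.06, which passed (adjusted p = 0.0208) against a lone control library. In the other arm, of overexpression, Hpgds stood at 2.61 RPKM in the control library and 26.3 RPKM with KAI1 overexpressed. That is 10.1-fold in RPKM and 7.56-fold on the RPKM + 1 scale, in 1 library against 1.

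Ptgs1 (chromosome 2, 36085946 to 36107789), the cyclooxygenase of platelets and most resting cells, stood at 0.402 and 1.02 RPKM in the 2 control libraries, against 1.52 and 4.61 RPKM in the 2 KAI1 knockdown libraries. Both knockdown libraries lay above both controls, on 22 and 29 against 56 and 258 reads. The difference was 1.16 (SE 0.50, 95% interval -0.19 to 2.51, adjusted p = 0.83). It was 0.90 with control replicate 1 left out and 1.42 with control replicate 2 left out, and it passed in neither (adjusted p = 0.515 and 0.178). It was 0.58 with KAI1 knockdown replicate 2 left out, the library with 258 reads, and 1.74 with KAI1 knockdown replicate 1 left out. Between the overexpression libraries Ptgs1 stood at 0.497 RPKM in the control library and 0.0355 RPKM with KAI1 overexpressed. The latter rests on 2 reads against 37, a ratio of control to overexpression of 14.0 with a counting interval of 3.61 to 119.8.

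Ptgs1 was lowest in the pair of libraries that were also lowest in the platelet lineage gene Gp9, which is given here after its values were seen. Only the KAI1 overexpression was clearly low in Ptgs1. Knockdown control replicate 1, at 0.402 RPKM (counting interval 0.252 to 0.608), overlapped the overexpression control at 0.497 RPKM (0.350 to 0.685). Gp9, a subunit of the platelet receptor for von Willebrand factor, stood at 0.959 and 26.9 RPKM in the 2 control libraries, 28.3 and 43.6 RPKM in the 2 KAI1 knockdown libraries, 29.8 RPKM in the overexpression control and 0.467 RPKM with KAI1 overexpressed. Other platelet genes had another order, for example Pf4, a platelet chemokine, at 1541 and 729 RPKM in the 2 control libraries, against 463 and 947 RPKM in the 2 KAI1 knockdown libraries. The 10 platelet genes found of 11 listed summed to 2427 and 1050 RPKM in the 2 control libraries, 863 and 1412 RPKM in the 2 KAI1 knockdown libraries, 824 RPKM in the overexpression control and 385 RPKM with KAI1 overexpressed, with none of them at 0. The part of such cells in the Ptgs1 values was not tested.

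Ptgs2 (chromosome 1, 151947254 to 151955142), the inducible cyclooxygenase, stood at 0.333 and 0.522 RPKM in the 2 control libraries, against 1.28 and 0.820 RPKM in the 2 KAI1 knockdown libraries, on 27 and 22 against 70 and 68 reads. Both knockdown libraries lay above both controls, but its mean stayed under 1 RPKM and it was not tested. With no filter on low values its difference was 0.52, with an unadjusted p of 0.0444 and an adjusted p of 0.832 by limma. In the overexpression pair it stood at 0.608 and 0.851 RPKM, a ratio of 1.40 with a counting interval of 0.989 to 1.99.

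Tbxas1 (chromosome 6, 38868985 to 39034578) stood at 0 and 0.579 RPKM in the 2 control libraries, against 0.569 and 0.214 RPKM in the 2 KAI1 knockdown libraries, with overlapping groups. The 0 of control replicate 1 allows up to 0.0821 RPKM, the value of 3 reads, for counting error only. In the overexpression arm Tbxas1 stood at 0.121 RPKM from 6 reads and 0.905 RPKM from 34 reads, a ratio of 7.49 with a counting interval of 3.11 to 21.8. The KAI1 overexpression was thus the highest library for Tbxas1, which acts after the cyclooxygenases, and the lowest for Ptgs1. For Tbxas1 its counting interval of 0.627 to 1.27 RPKM overlapped those of knockdown control replicate 2 (0.289 to 1.04) and KAI1 knockdown replicate 1 (0.311 to 0.955). The deposited span of Tbxas1 holds 1 other entry, 1700025N23Rik, and without stated strandedness their reads cannot be told apart.

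Cysltr1 (chromosome X, 103771856 to 103905896), the receptor for cysteinyl leukotrienes, was listed at 0 in all 6 libraries. A listed 0 can be a failed estimate, which was not tested for this entry. Of all 23146 entries, 7195 were at 0 in all 6 libraries. Of the 11 housekeeping genes found among 12 looked up, 0 were at 0 in any library, which cannot decide the matter for another locus. Its span overlaps 1 other entry, Gm5127.

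Over the knockdown comparison as a whole, 6 of the 10 members passed the filter of a mean of at least 1 RPKM, and limma called 0 of them, with 0 at an unadjusted p below 0.05. Among all 10113 entries tested it called 0.0297%, with 336 at an unadjusted p below 0.05. In 2 of the 6, both knockdown libraries exceeded both controls (Pla2g4a and Ptgs1), against 21.5% of all entries tested. They lay below in 2 (Lta4h and Hpgds), against 17.0%. The median difference was -0.21 over the 6 members and 0.028 over all entries tested. It was 0.25 over the members without control replicate 1. Without control replicate 2, limma called 3 of the 6 members, against 10.3% of all entries, and the spread within groups then came from the knockdown pair alone.

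**Figure D2:**
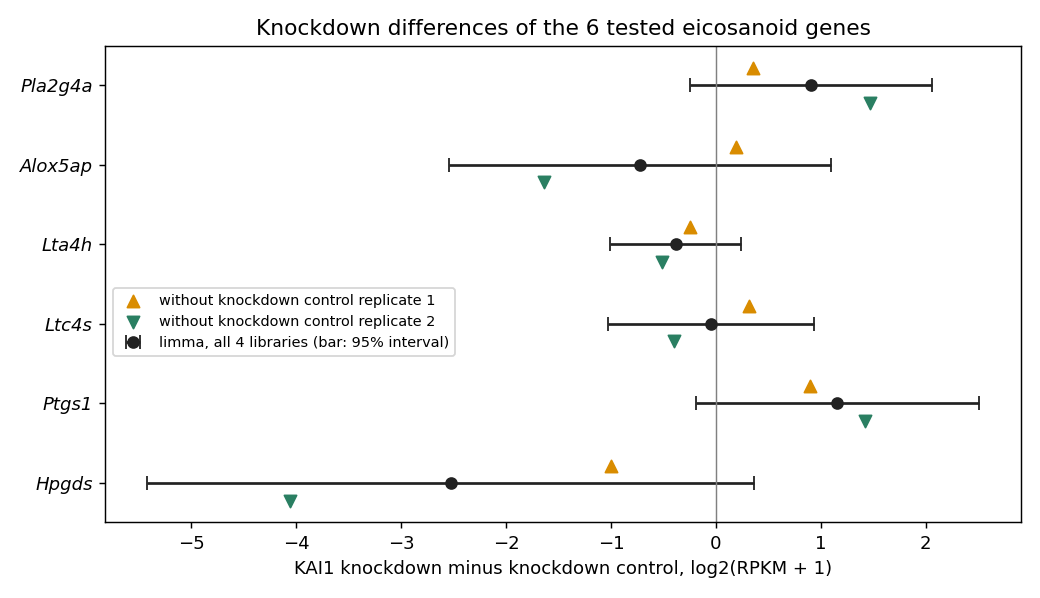
Differences of the 6 tested members between KAI1 knockdown and knockdown control on the log2(RPKM + 1) scale. Black points are the limma estimates with their 95% intervals, all of which include 0, and triangles are the estimates with 1 control library left out. The Hpgds difference runs from -0.999 to -4.06 between them, and those of Alox5ap and Ltc4s change sign.

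In the overexpression comparison, where single libraries face each other and nothing was tested, 5 members had a mean of at least 1 RPKM. Of these, 1 was at least 2-fold higher in the KAI1 overexpression (Hpgds), against 4.92% of 9936 entries covered. None of the 5 was at least 2-fold lower, against 5.21%. The median difference was 0.37 over the 5 members and 0.0057 over all entries covered.

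Set beside the mast cell and basophil markers, 3 members had the same libraries at the top as the list, and Pla2g4a and Ptgs1 had them at the bottom. The median of the 21 markers, as a deviation from each gene's mean over the 6 libraries in log2(RPKM + 1), was 1.97 and -0.090 for the knockdown controls, -0.74 and -0.43 for the KAI1 knockdown pair, -1.05 for the overexpression control and 0.50 for the KAI1 overexpression. Of the 21 markers, 13 lay below both controls in both knockdown libraries and 0 above, with a median difference of -1.29, and 14 of the 20 covered were at least 2-fold higher with KAI1 overexpressed. Knockdown control replicate 1 was the highest library and the KAI1 overexpression the second for Hpgds, Alox5ap and Lta4h, that is 3 of the 6 members whose mean over all libraries reached 1 RPKM. The same order held for 12 of the 21 markers and for 11.5% of 10112 entries. For Lta4h the second place was a near tie. It stood at 26.5 RPKM (counting interval 24.9 to 28.2) with KAI1 overexpressed and 25.2 RPKM (23.0 to 27.5) in control replicate 2. Pla2g4a was lowest in knockdown control replicate 1 and second lowest in the KAI1 overexpression, an order found in 10.1% of entries and in 6 of 12 erythroid entries. Hba-a2 has more than 1 entry among those 6. This order also held for 2 of 7 neutrophil and monocyte, 1 of 2 lymphoid and 1 of 9 megakaryocyte and platelet entries. Ptgs1 had the same pair of libraries at the bottom in the other order, with the KAI1 overexpression lowest. Its counting intervals in control replicate 1 and the overexpression control overlapped. The 12 erythroid genes found of 13, with each Hba-a2 entry included, summed to 208 and 5065 RPKM in the 2 control libraries. The sums were 3865 and 4651 RPKM in the 2 KAI1 knockdown libraries, and 3247 and 1117 RPKM in the overexpression pair, with none of the genes at 0 throughout. The erythroid sum was highest in control replicate 2, where Pla2g4a stood at 10.4 RPKM, below both KAI1 knockdown libraries and the overexpression control. The part of erythroid or other cells in the Pla2g4a values was not tested. These orders describe libraries of different groups, and with 6 libraries they were given no test.

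**Figure D3:**
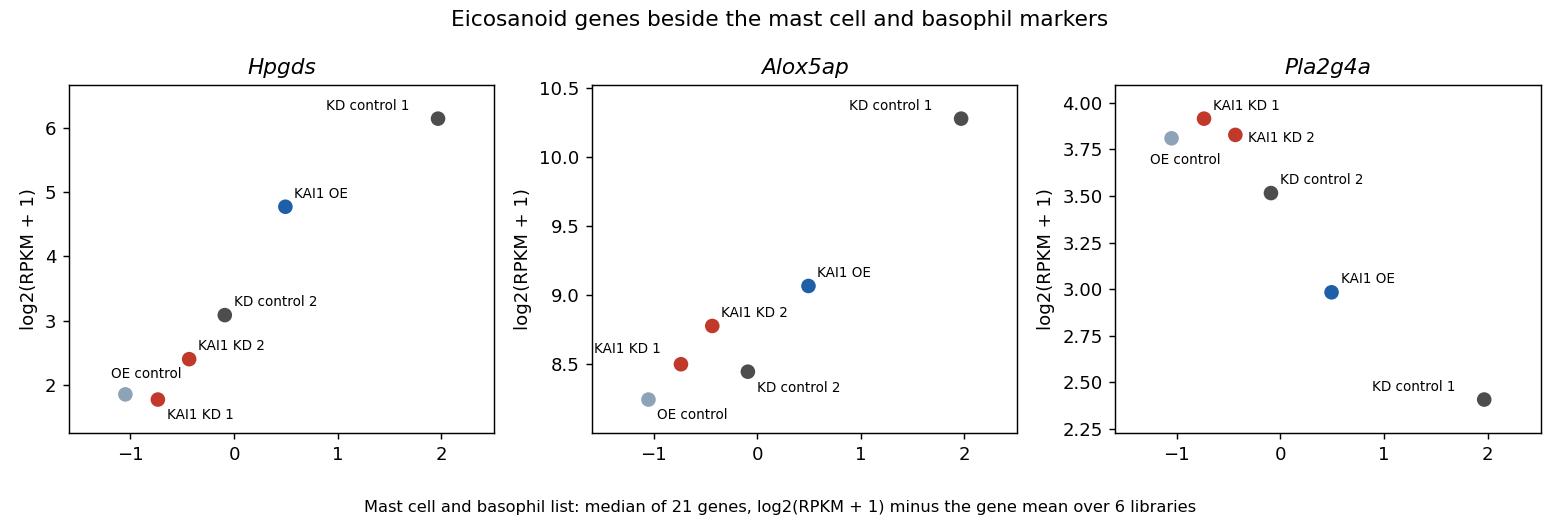
log2(RPKM + 1) of Hpgds, Alox5ap and Pla2g4a in each library (vertical axes, which differ in range and do not start at 0) against the median deviation of 21 mast cell and basophil markers (horizontal axis). Each point is 1 of the 6 libraries (KD, knockdown; OE, overexpression). Knockdown control replicate 1, with a marker median of 1.97, is the highest library for Hpgds and Alox5ap and the lowest for Pla2g4a.

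Among the markers, the protease Mcpt4 stood at 9416 and 221 RPKM in the 2 knockdown control libraries, 66.8 and 165 RPKM in the 2 KAI1 knockdown libraries, 23.2 RPKM in the overexpression control and 240 RPKM with KAI1 overexpressed. Hdc, which makes histamine, stood at 902 and 150 against 32.7 and 64.2 RPKM, and at 25.1 and 52.8 RPKM in the overexpression pair. Mcpt8 had another order, with 160 RPKM in control replicate 1 below the 389 RPKM of control replicate 2. Its KAI1 knockdown values were 234 and 116 RPKM. KAI1 overexpression was its highest library, with 3908 RPKM against 491 RPKM in the control of that arm. Gzmb also peaked there, at 2775 RPKM. Macrophages also express Hpgds and Alox5ap. The macrophage receptor Csf1r was at 2.73 RPKM in knockdown control replicate 1 and at 0.127 to 0.413 RPKM elsewhere. Adgre1 was likewise highest there, at 2.92 RPKM, against 0.0469 to 0.249 RPKM elsewhere. That library was also the highest for Hpgds and Alox5ap. Cd74 was highest in the KAI1 overexpression (6.65 RPKM), and Itgax was at 0 in knockdown control replicate 1. C1qa, C1qc and Mrc1 were at 0 in all 6 libraries. The 9 macrophage and dendritic cell genes found of 10 summed to 7.599 and 3.763 RPKM in the 2 control libraries, 1.99 and 1.78 RPKM in the 2 KAI1 knockdown libraries, and 3.02 and 7.09 RPKM in the overexpression pair. The part of either cell type in the member values was not tested.

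The genes of most similar profile were sought among 6959 others, by the Euclidean distance between log2(RPKM + 1) profiles over the 6 libraries, each centred on its mean. For Hpgds they were Lpxn, Il13 and Vwa5a, at distances of 0.645, 0.654 and 0.669 against a median of 4.04 over all candidates. Il13, a type 2 cytokine, stood at 70.7 and 6.62 RPKM in the 2 control libraries, 3.53 and 3.22 RPKM in the 2 KAI1 knockdown libraries, 1.71 RPKM in the overexpression control and 23.2 RPKM with KAI1 overexpressed. For Alox5ap they were Cyth4, Dbp and Nfkbie (0.199, 0.250 and 0.265, median 1.81), and for Pla2g4a they were Asrgl1, Csnk1e and Ankrd10 (0.190, 0.298 and 0.312, median 1.43). The other members had too low a level or too narrow a range for this search.

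A list of 59 other genes of the pathway gave the surroundings of the members. Of these, 9 were at 0 in all 6 libraries, among them the prostaglandin dehydrogenase Hpgd, the second cysteinyl leukotriene receptor Cysltr2 and the lipoxygenase Alox15. The test covered 25, of which limma called 0, with 1 at an unadjusted p below 0.05, the phospholipase Pla2g6. Pla2g6 differed by 0.79 on the log2 scale (limma, adjusted p = 0.83). The knockdown pair exceeded both controls in 5 of the 25 (Pla2g6, Ptgr2, Ptges2, Ptgdr2 and Gpx1), against 21.5% of all entries tested, and lay below them in 4 (Acsl4, Pla2g15, Pla2g12a and Lpcat3), against 17.0%. Both counts were near the share over all entries, and none of these gaps reached 2-fold. The median difference was -0.10 over the 25.

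Among the most abundant of these genes, the glutathione peroxidases Gpx4 and Gpx1, which lower lipid peroxides, had means of 916 and 905 RPKM over the 6 libraries. Gpx1 stood at 461 and 791 RPKM in the 2 control libraries, against 959 and 1148 RPKM in the 2 KAI1 knockdown libraries (difference 0.80, SE 0.39, adjusted p = 0.83). Mboat7 and Lpcat3, which return arachidonic acid and other fatty acids to phospholipids, stood at 138 and 131 RPKM in control replicate 1 and at 26.7 and 72.5 RPKM in control replicate 2. In the KAI1 knockdown Mboat7 was at 27.9 and 26.8 RPKM and Lpcat3 at 64.9 and 59.7 RPKM. Control replicate 1 was thus the highest library for both. Akr1b3, an aldose reductase that can make prostaglandin F2 alpha, ranged from 51.0 to 107 RPKM, and Cotl1, which binds 5-lipoxygenase, from 36.4 to 73.8 RPKM.

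Among the listed pathway genes, the widest difference in the overexpression pair was in Mgst2, a microsomal glutathione transferase that can make leukotriene C4. It stood at 7.41 RPKM in the control library and 173 RPKM with KAI1 overexpressed, a difference of 4.37 on the log2 scale, and at 18.01 to 25.21 RPKM in the knockdown arm. The KAI1 overexpression was thus its highest library and the overexpression control its lowest, while Ltc4s, which carries out the same step, lay between 1.39 and 3.03 RPKM throughout. Ptgr1, which inactivates prostaglandins and leukotriene B4, stood at 57.3 RPKM in the control library and 12.2 RPKM with KAI1 overexpressed, and at 57.8 to 72.8 RPKM in the knockdown arm. In all, 3 of 24 pathway genes covered were at least 2-fold higher in the KAI1 overexpression (Mgst2, the leukotriene exporter Abcc1 and the prostacyclin receptor Ptgir), against 4.92% of all entries covered. Another 3 were at least 2-fold lower (Ptgr1, Gpx1 and the prostaglandin E2 receptor Ptger4), against 5.21%.

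Of 14 other receptors, 6 entered the knockdown test and 2 were at 0 in all libraries. Ptger1, a receptor for prostaglandin E2, was the highest, at 32.2 and 6.37 RPKM in the 2 control libraries, 13.2 and 18.4 RPKM in the 2 KAI1 knockdown libraries, and 21.9 and 23.6 RPKM in the overexpression pair. Ptger3, another such receptor, stood at 5.54 RPKM in control replicate 1 and at 0.309 RPKM in control replicate 2, with 0.477 and 0.786 RPKM in the 2 KAI1 knockdown libraries. The prostaglandin D2 receptor Ptgdr2 stood at 0.876 and 1.72 RPKM in the 2 control libraries, against 2.39 and 1.83 RPKM in the 2 KAI1 knockdown libraries, so both knockdown libraries lay above both controls (difference 0.46, SE 0.33, adjusted p = 0.83). The other prostaglandin D2 receptor, Ptgdr, was at or below 0.0136 RPKM in every library.

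**Figure D4:**
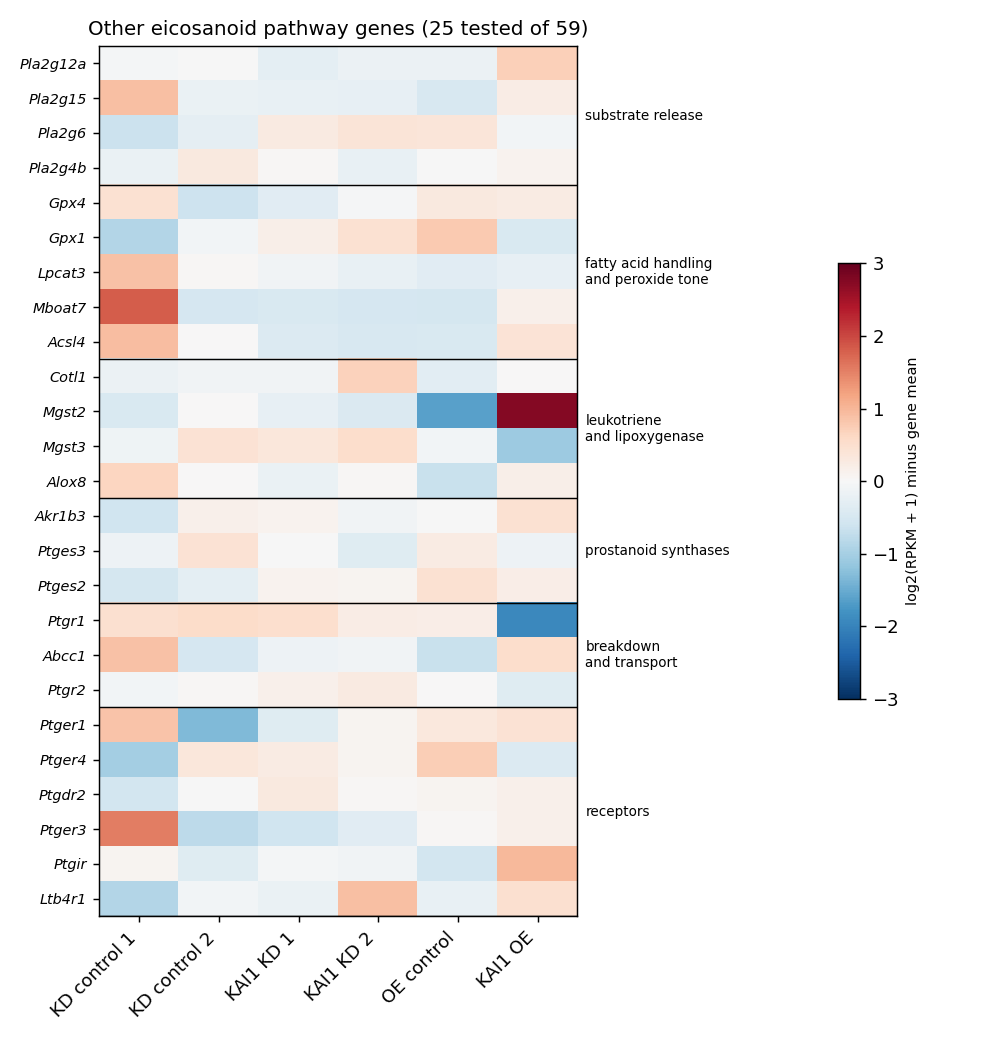
log2(RPKM + 1) of the 25 pathway genes tested of 59, minus each gene's mean over the 6 libraries, with genes in rows grouped by role and libraries in columns (KD, knockdown; OE, overexpression). Red is above and blue below the gene mean. The strongest colours are those of Mgst2 (173 RPKM) and Ptgr1 (12.2 RPKM) in the KAI1 overexpression.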

How the data were processed

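RNA levels were read from 6 tables, 1 per library, in which the authors deposited RPKM per transcript entry, per the file headers. RNA was isolated with TRIZOL or an RNeasy kit per the labels, which do not say which library had which. Poly(A) selection and strandedness are not given in the sources used here. Cufflinks, Bowtie, TopHat2 2.0.9 and the build mm9 are named, without settings, per the submitters' processing notes. Each table held 23170 rows, of which 24 repeated an accession and locus, leaving 23146 entries. A RefSeq table named 22840 entries and GENCODE 125, for symbols only. Member starts are the deposited start plus 1, since end minus start equalled the RefSeq gene length in 8124 entries.

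Depth was taken from ratios of low values between libraries. Values of 1 gene times the relative depth are whole multiples of 1 read (tolerance 0.03 of a read), which gave reads for 7 of the 9 members above 0. The absolute depth used 234 entries and GENCODE transcript lengths, with quartiles of 17700000 and 19500000 reads for knockdown control replicate 1. Intervals are 95%, exact, and cover counting error only. Whole reads were recovered for members only, and the count models were left out.

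For the knockdown, limma (3.58.1, under R 4.3.3) was fitted with its trend option to log2(RPKM + 1) values of the 10113 entries whose mean over the 4 libraries reached 1 RPKM. Tests were two-sided with Benjamini-Hochberg adjustment over all of them and a threshold of 0.05. A fold change on this scale understates the change of low genes. The overexpression pair was described by a 2-fold rule on the RPKM + 1 scale. The design allowed RPKM or FPKM, and the tables hold RPKM. Scripts were tested on simulated data.

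The members and lists were chosen with earlier results of these data known. Named genes are all members, the 8 pathway genes of highest mean, those that passed the test or a 2-fold gap, fixed markers and the 3 most similar profiles of each member with a highest value of at least 5 RPKM and a range of at least 1 log2 unit. Others were named after their values were seen. Of the other lists, the 12 erythroid entries tested had a median knockdown difference of 1.54, 7 neutrophil and monocyte genes 0.88, 2 lymphoid genes 0.11 and 1 stromal gene -0.80. Alternatives covered the pseudocount, the filter, quantile normalization, the trend, a replicate block and each library left out.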

Additional observations from a re-analysis of the deposited data

How the results depend on the processing

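Over all entries limma called 3. It called 5 with a pseudocount of 0.1 RPKM and 0 with no filter on low values (683 at an unadjusted p below 0.05), and 0 to 1045 with 1 library left out. Of the members it called 0 under every setting with all 4 libraries and 0 to 3 with 1 left out, 3 of them without control replicate 2. The median member difference of -0.21 was -0.55 with a mean of at least 5 RPKM, where 4 members were tested, and ran from -0.46 to 0.25 with 1 library left out. With no filter it was 0.023 over 9 members. Ltc4s turned to 0.018 with quantile normalization, 0.31 without control replicate 1 and 0.14 without KAI1 knockdown replicate 1, and Alox5ap to 0.19 without control replicate 1. Without control replicate 2 these were -0.40 and -1.64. Ptgs1 ran from 0.58 to 1.74 with 1 library left out and was 1.88 with a pseudocount of 0.1 RPKM, and Lta4h ran from -0.52 to -0.25 with 1 library left out. Over all settings the adjusted p ran from 0.033 to 1 for Pla2g4a, 0.035 to 1 for Alox5ap and 0.0208 to 1 for Hpgds. A fit with 1 library left out takes the spread from the other pair, and the cause of these moves was not tested. In the overexpression pair the median of 0.37 was 0.55 with a pseudocount of 0.1 RPKM and 0.57 with a mean of at least 5 RPKM, and Hpgds moved from 2.92 to 3.28 with that pseudocount. The number of members at least 2-fold higher stayed at 1 under every setting tried. With the replicate number as a block limma called 4 entries and 0 members. Libraries of the same number did not deviate together (correlation of deviations -0.075 over 10113 entries). This compares a single control contrast with a single knockdown contrast, so it cannot decide whether the number marks a shared culture. Depth limits Alox5, Ltc4s and Tbxas1, with at most 34 reads a library.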
